A study of Larimichthys crocea with 2 samples.

Results

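Skipping of several neighbouring exons together was examined in muscle of Larimichthys crocea, the large yellow croaker. An event of this kind is a block of 2 or more exons that one transcript form keeps (the ON form) and another form leaves out as a unit (the OFF form). Members were all event entries of the multi-exon skipping classes, with exact or approximate outer exon ends, whose ON and OFF forms could be paired within one assembled locus. Control muscle had 482 such pairs and fasted muscle 462, which made 600 distinct events among 3693 distinct exon-skipping events of any size.

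The study held 2 libraries, 1 from muscle of fish that received no treatment and 1 from muscle of fish fasted for 21 days. The labels give no strain, sex or age, do not say which muscle was taken, and do not say whether a library came from 1 fish or from pooled fish. With 1 library per group no difference below has a replicate check, so all differences are between these libraries and no p-value is given. The submitters deposited FPKM (fragments scaled for transcript length and library size) for each form, and inclusion was taken as the ON value in percent of ON plus OFF.

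In the usual exon-skipping reaction the spliceosome joins the exons on either side of a cassette exon. When neighbouring exons are skipped as a block, a longer piece of protein is removed in one step, and the downstream reading frame is kept when the block is a whole number of codons. Skeletal muscle is known for many such choices: troponin T, titin, nebulin and the Z-disc adaptors with PDZ and LIM domains exist in vertebrate muscle as families of splice forms that differ with fibre type and developmental stage.

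Most blocks were short. Of the 600 distinct events, 405 (67.5%) had 2 exons, 98 had 3, 39 had 4, 16 had 5 and 42 had more. The longest block held 25 exons and lay in obscurin, a giant protein that links the sarcomere to the sarcoplasmic reticulum. The median block was 235.5 bases long, with quartiles of 136.5 and 394.5 bases and a range of 15 to 11232 bases.

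Block length was a multiple of 3 in 485 events (80.8%), compared with 2265 of 3093 single skipped exons (73.2%). In 375 blocks (62.5%) every exon was a multiple of 3 on its own, and in 110 (18.3%) only the sum was. Taken one by one, 814 of the 1202 distinct exons in blocks (67.7%) were multiples of 3, a smaller share than the 72.7% of exons that were skipped singly. The listed blocks thus had a length that is a multiple of 3 more often than single exons did, although their individual exons did so less often. Coding positions were not used, so codon numbers given here are lengths divided by 3 and the reading frame itself was not examined. With the first event of each gene only, the shares were 75.8% for blocks and 70.5% for single exons. These are descriptions of the lists, since events of one gene share exons. Exons of up to 27 bases made up 8.82% of exons in blocks and 12.9% of single skipped exons, and the median exon measured 96 bases in blocks and 77 bases when skipped singly.

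**Figure D1:**
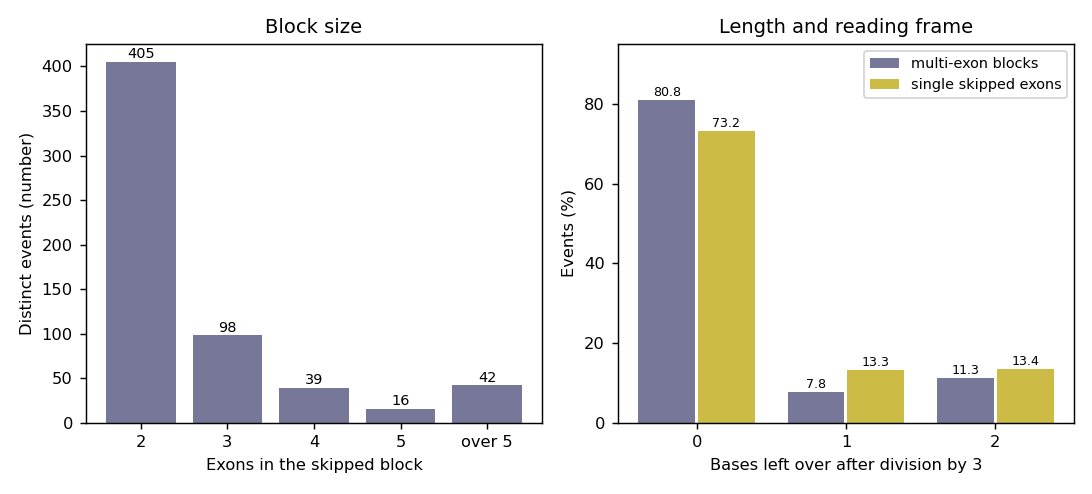
Left, the number of distinct events (vertical axis) by the number of exons in the skipped block; right, the percentage of events by the bases left after dividing the length by 3, for multi-exon blocks and single skipped exons. Blocks of 2 exons make up 405 of 600 events, and 80.8% of blocks against 73.2% of single exons leave no remainder.

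In 21 events all exons of the block had the same length, as in repeat proteins whose exons copy one another. Nebulette, the cardiac relative of nebulin that anchors thin filaments at the Z-disc, had a block of 7 exons of 111 bases, or 37 codons each. Nebulin, the ruler of the thin filament, had a block of 2 exons of 111 bases. Src substrate protein p85, encoded by cttn, a cortical actin-binding protein with a run of repeats, had blocks of 2 and of 3 exons of this same length of 111 bases. Titin, the elastic filament of the sarcomere, had a block of 2 exons of 267 bases (89 codons each), and zinc finger protein 84 had blocks of 84-base exons (28 codons each).

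The exons of a block were often also listed as skipped alone. In the control library every exon of the block was also listed as skipped singly for 177 of 482 events (36.7%), some were for 61 and none for 244 (50.6%). In the fasted library the numbers were 173 of 462 (37.4%), 50 and 239 (51.7%). In each library the events listed only as whole blocks made up about the same share.

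The libraries held 27519918 and 26593839 reads on listed genes in control and fasted muscle, recovered from the deposited RPM values. Skeletal muscle marker genes were abundant in both, with summed RPKM (reads scaled for gene length and library size) of 426325 and 231552 over 33 genes, of which 6 were at 0 in each library. Summed RPKM of marker genes of other tissues were lower in the fasted library: 568 and 44.7 for 12 blood cell genes, 1972 and 514 for 86 skin epithelium genes, 701 and 138 for 5 connective tissue genes, 63.0 and 22.9 for 8 nerve genes and 66.1 and 0.262 for 4 adipocyte genes. Of the adipocyte genes 3 were at 0 in each library, and of the skin genes 48 in control and 50 in fasted muscle. The part of these shifts in the splicing values was not tested. In bulk muscle, fewer cells of a type and less RNA per cell cannot be told apart.

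Both libraries listed 344 of the events, which is 71.4% of the control events and 74.5% of the fasted events. For single-exon events the shared portions were 77.7% and 76.7%. Of the 344 shared events, 48 had both forms at 0 FPKM in both libraries, 58 had both forms at 0 in 1 library, and 75 stayed under a sum of 1 FPKM in at least 1 library. The remaining 163 events in 120 genes, with ON plus OFF of at least 1 FPKM in both libraries, were compared. Just inside this minimum lay the phospholipid-transporting ATPase gene atp11b (sums of 1.05 FPKM in control and 1.01 FPKM in fasted muscle) and MAP kinase kinase 4 (1.03 and 2.42 FPKM). Just outside lay pleckstrin homology domain-containing family A member 5 (0.986 and 1.10 FPKM) and FYVE and coiled-coil domain-containing protein 1 (0.968 and 1.72 FPKM).

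Within a library, inclusion was spread over the whole range. Among the 303 control pairs with a sum of at least 1 FPKM, the median inclusion was 54.7%, with quartiles of 16.1% and 100%. Among the 297 fasted pairs it was 60.8%, with quartiles of 23.7% and 100%. In control muscle 68 pairs had inclusion of 0 and 90 had inclusion of 100%; in fasted muscle these numbers were 62 and 93. Intermediate inclusion was found in 47.9% of control and 47.8% of fasted pairs, less often than for single-exon events, where it was 59.9% and 59.7%. A block was thus more often listed with a single expressed form than a single exon was, in both libraries.

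Of the 163 events compared, 32 were at least 20 percentage points higher in the fasted library and 26 at least 20 points lower, while 105 lay closer together. Together 35.6% of the multi-exon events passed 20 points, against 37.6% of all 1277 exon-skipping events compared in the same way. By direction, 19.6% of the multi-exon events were higher and 16.0% lower, against 21.3% and 16.3% of all. The share of multi-exon events that differed was near that background and is not a result about blocks as such.

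The sizes were distributed differently. The median absolute difference was 3.55 points for blocks and 12.05 points for single exons, and with all forms above 0 it was 9.56 and 14.8 points. In all, 74 block events (45.4%) stood at the same end in both libraries, 30 at 0 and 44 at 100%. For single exons 30.8% did so. Blocks of 2 exons passed 20 points in 42 of 114 cases (36.8%), and longer blocks in 16 of 49 (32.7%). Length was a multiple of 3 in 50 of the 58 events that passed (86.2%) and in 94 of the 105 that did not (89.5%).

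Most differences involved a form listed at 0. The same held for most of the 163 compared events, of which only 37 had all 4 values above 0. Of the 58 events that passed, 47 had at least 1 of the 4 values at 0 FPKM: 19 of the higher events reached 100% in fasted muscle, 8 started from 0, 15 of the lower events started from 100% in control and 8 ended at 0. With all 4 values above 0, 37 events were left, of which 5 were higher and 6 lower (29.7%, against 37.6% for single exons). The genes of events that passed had fewer reads, with medians of 756 in control and 807.5 in fasted muscle, than the genes of the other events, with 989 and 1308. FPKM values carry no read number, so no interval could be set on an inclusion.

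**Figure D2:**
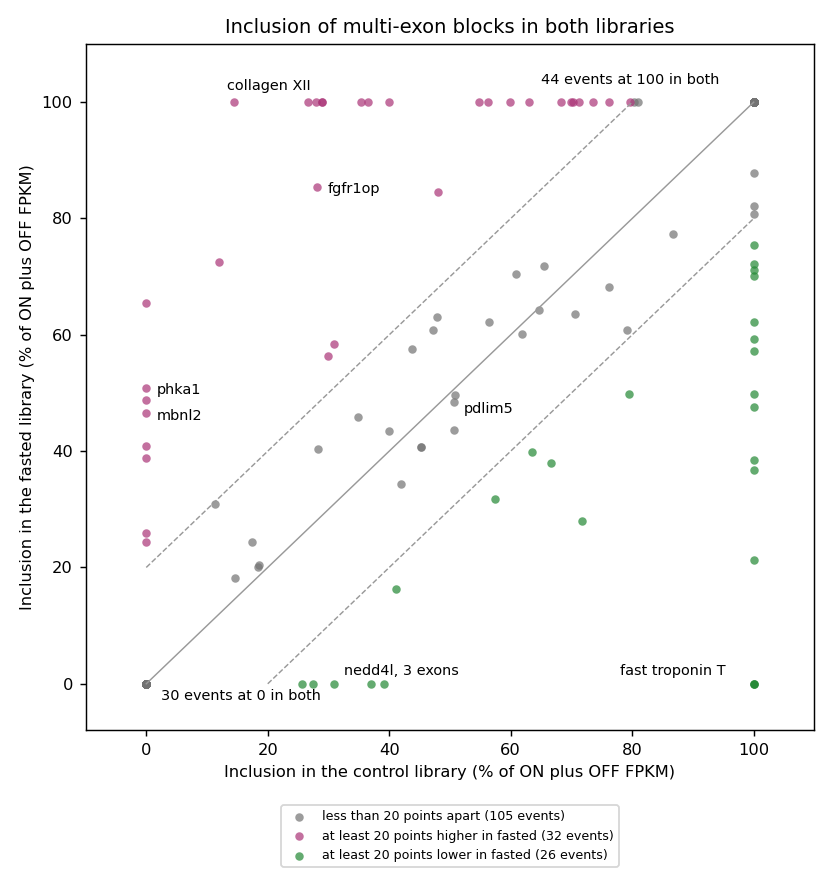
Inclusion of the 163 compared events in the control library (horizontal) and the fasted library (vertical), in percent of ON plus OFF FPKM; each point is 1 event, the solid line marks equal values and the dashed lines 20 points on either side. The 32 higher and 26 lower events lie mostly along the edges of the square, where a form is listed at 0, and 30 and 44 events share the corners at 0 and 100%.

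Contractile and Z-disc genes held 56 of the 600 events, in 19 genes. Of these blocks 55 (98.2%) were multiples of 3, against 80.8% of all blocks, but many lie in the same gene and share exons. The list was matched on protein names and also took the unconventional myosin myo6, which moves cargo along actin and is no part of the sarcomere. Of the 56, 27 were listed in both libraries, 13 in control only and 16 in fasted only. The minimum left 13 events in 8 genes, of which 0 were higher in fasted muscle, 3 were lower and 10 were within 20 points, with a median difference of 0. Among all compared exon-skipping events 21.3% were higher and 16.3% lower, and the small counts of this and the following gene lists are to be read against those shares. In 9 of the 13 events the ON form was at 0 in both libraries.

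The fast skeletal isoform of troponin T, the thin-filament subunit that ties the troponin complex to tropomyosin, gave the event with the highest FPKM that changed ends. A block of 9 and 171 bases (60 codons) at NW_011323102.1:179456-180138, plus strand, had 1170 FPKM ON and 0 OFF in control muscle and 0 ON and 1933 FPKM OFF in fasted muscle. Inclusion in this pair of forms was 100% in control and 0 in fasted muscle, a complete change within the pair but not for the gene. The gene was read deeply, with 500166 reads in control and 275055 in fasted muscle.

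A second block of this troponin T gene, of 171 and 18 bases, overlapped the first through its 171-base exon. Its ON form was at 0 in both libraries, and its OFF form had 5907 FPKM in control and 3303 FPKM in fasted muscle. A form without that exon was therefore present in both libraries. In control muscle its 5907 FPKM exceeded the 1170 FPKM of the first block's ON form. The first event changed ends while the second stayed at 0, so the listed values of one exon depended on which neighbours it was paired with. The gene's 3 other listed blocks were not compared, as both of their forms were at 0 in control muscle; in fasted muscle their OFF form had the same 1933 FPKM.

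Obscurin was the other gene of the list with differences, in an obscurin gene (gene5168) other than that of the 25-exon block, with 2383 control and 890 fasted reads. A block of 83 and 201 bases, not a multiple of 3, had 2.89 FPKM ON and 0 OFF in control muscle and 0.272 ON and 1.01 OFF in fasted muscle, so that inclusion was 100% and 21.3%. A neighbouring block of 95 and 73 bases, with approximate outer exon ends, had the same control values. In fasted muscle it had 0.964 ON and 0.315 OFF, so that inclusion was 100% and 75.4%. Both events had lower inclusion in fasted muscle, at sums close to the minimum, and they share their control values.

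Most of the compared thick-filament and Z-disc blocks had only their OFF form above 0 in both libraries, so their inclusion was at its lower end and only the level of that form could differ. Myosin-binding protein H, a thick-filament protein of fast fibres, had 3 nested blocks of 240, 183 and 132 bases that share the same values: the ON form was at 0 and the OFF form had 2565 FPKM in control and 1870 FPKM in fasted muscle. Myomesin-2, the M-band crosslinker of myosin filaments, had an OFF form of 542 FPKM in control and 44.1 FPKM in fasted muscle for a block of 3 exons and 366 bases. The outer exon ends of this block are approximate. That gene (gene16836) had 650.7 RPKM in control and 109.9 RPKM in fasted muscle. A second gene annotated as myomesin-2 (gene1204) had 606.9 and 371.8 RPKM, and its only block, of 104 and 58 bases, was listed in fasted muscle alone, with 87.9 FPKM ON and 80.8 OFF, or 52.1%.

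Fast-type myosin-binding protein C, which regulates crossbridges, had 9 listed blocks of very short exons, of which 2 were compared. The shared OFF value of these 2 was 129.6 FPKM in control muscle, and in fasted muscle it was 90.1 FPKM for the block of 24 and 24 bases and 18.4 FPKM for that of 21 and 24 bases. LIM domain-binding protein 3, a Z-disc adaptor that binds alpha-actinin, had an OFF form of 97.6 FPKM in control and 56.8 FPKM in fasted muscle for a block of 324 bases. Inclusion was 0 in both libraries for these compared blocks. The other blocks of the myosin-binding protein C gene could not be compared. Of these, 6 had 0 ON and 580 FPKM OFF in control muscle and both forms at 0 in fasted muscle, and a fasted-only block of 18 and 24 bases had 71.8 FPKM ON and 0 OFF. The gene had 101685 reads in control and 13106 in fasted muscle.

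PDZ and LIM domain protein 5, another Z-disc adaptor, had the most even choice of the list. A block of 21 and 18 bases (13 codons) had 33.3 FPKM ON and 32.3 FPKM OFF in control muscle and 35.4 ON and 35.98 OFF in fasted muscle. Inclusion was 50.8% and 49.6%, a difference of -1.22 points.

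**Figure D3:**
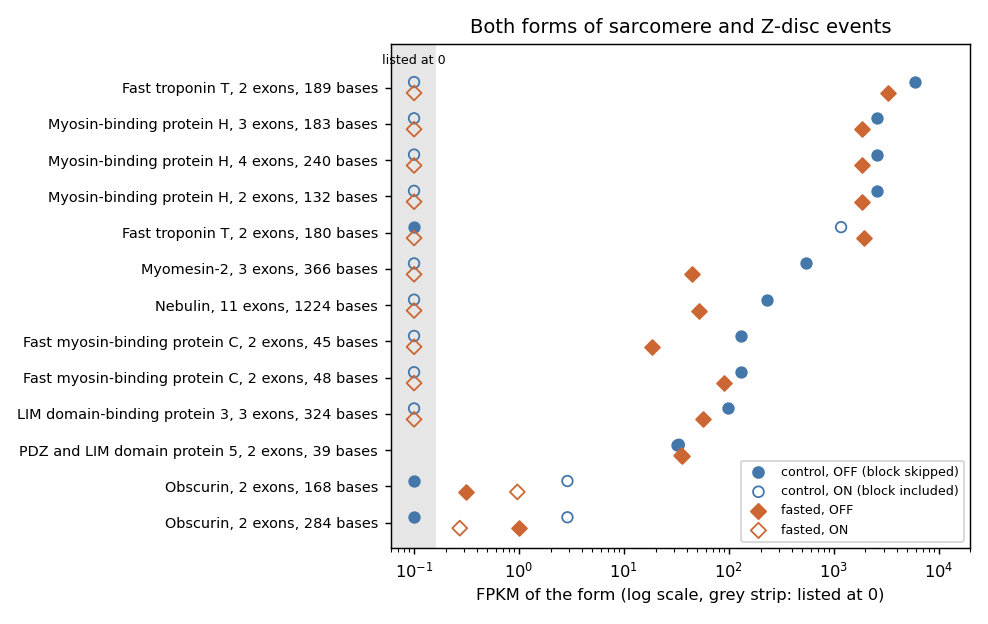
FPKM (log axis) of the ON form (open) and OFF form (filled) of the 13 compared sarcomere and Z-disc events, circles for control and diamonds for fasted muscle; the grey strip holds values listed at 0. In 9 events both open symbols lie in the strip, the 180-base block of fast troponin T changes from ON at 1170 FPKM to OFF at 1933 FPKM, and the ON and OFF symbols of PDZ and LIM domain protein 5 overlap.

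Nebulin showed a different set of blocks in each library around one shared stretch. The block of 11 exons and 1224 bases that both libraries listed, at NW_011322493.1:563541-572294, had ON at 0 in both, with OFF at 231 FPKM in control and 51.5 FPKM in fasted muscle. Between the same start and end positions, control muscle listed a block of 5 exons (105 bases and then 4 times 93 bases) with 89.5 FPKM ON and 231 FPKM OFF. Fasted muscle instead listed blocks of 4 exons, with 159 FPKM ON and 51.5 OFF, of 3 exons, with 81.1 ON and 51.5 OFF, and of 9 exons, with 30.02 ON and 51.5 OFF. Within each library these blocks are thus different sets of exons set against the same OFF value.

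Inclusion in those nebulin blocks was 27.9% for the 5-exon block of control muscle, and 75.5%, 61.2% and 36.8% for the 4-exon, 3-exon and 9-exon blocks of fasted muscle. As the blocks differ, these values are not a comparison of one event. Fasted muscle also listed the nebulin block of 2 exons of 111 bases, with 252 FPKM ON and 30.02 FPKM OFF. It listed 2 nebulin blocks of 22 exons as well, 3663 and 3726 bases long, with approximate outer exon ends. The nebulin gene had 274686 reads in control and 153396 in fasted muscle, so its depth was high in both.

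**Figure D4:**
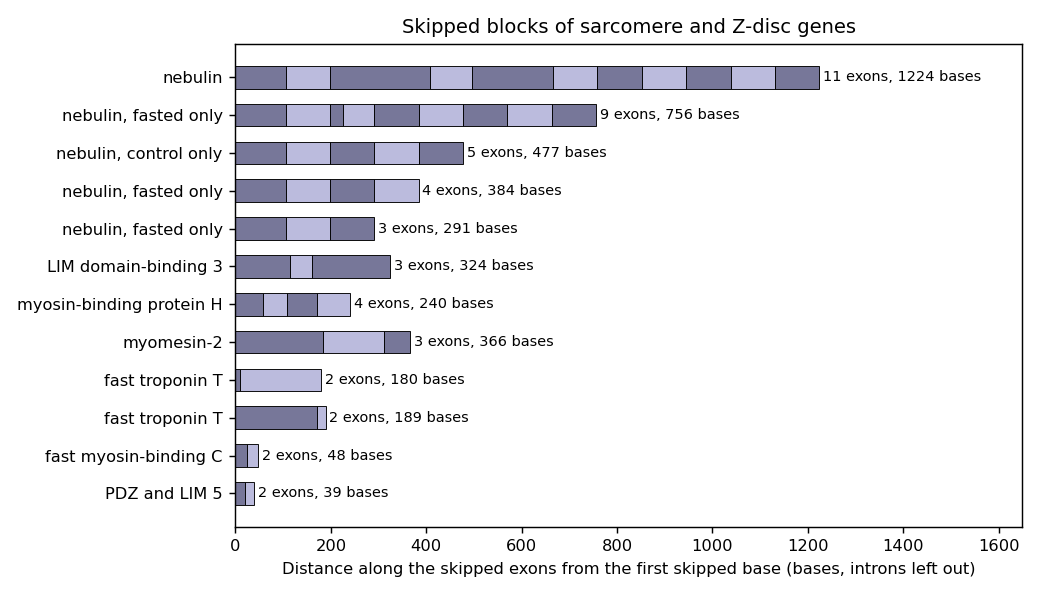
Skipped exons of 12 sarcomere and Z-disc events drawn to scale in bases from the first skipped base, with introns left out and alternating shades for successive exons. The nebulin blocks of 3, 4, 5, 9 and 11 exons start with the same exon of 105 bases and end at the same scaffold position. They differ in the exons between. The blocks of fast troponin T share their 171-base exon.

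The largest gain in inclusion came from an extracellular matrix gene. Collagen XII, a fibril-associated collagen of tendon and muscle connective tissue, had a block of 15 exons and 3495 bases (1165 codons), the most exons of any event compared. Control muscle had 0.753 FPKM ON and 4.47 OFF, and fasted muscle 5.11 ON and 0 OFF, so that inclusion was 14.4% and 100%. The long form was the minor one in control muscle and the only one above 0 in fasted muscle. The gene's reads were 2008 in control and 1323 in fasted muscle, and the summed connective tissue markers were lower in fasted muscle as given above; their part in this value was not tested.

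Inclusion was 26.6% in control and 100% in fasted muscle for usp47, a deubiquitinase, and 28.0% and 100% for mff, the mitochondrial outer-membrane receptor that recruits the fission dynamin. It was 29.0% and 100% for oxysterol-binding protein 1, a sterol carrier at membrane contact sites. In all of these the OFF form was above 0 in control and at 0 in fasted muscle, from OFF values of 1.25, 1.39 and 1.32 FPKM. The mff gene had just 68 and 121 reads.

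Nesprin-2, which anchors nuclei to the cytoskeleton, had inclusion of 35.3% in control and 100% in fasted muscle. For msrb3, a methionine sulfoxide reductase, it was 36.5% and 100%, for a block of 260 bases, not a multiple of 3. Its values went from 5.04 FPKM ON and 8.77 OFF to 10.02 ON and 0 OFF. Target of Nesh-SH3, a matrix-associated protein, had inclusion of 0 in control and 65.5% in fasted muscle. These 3 also gained through a form at 0 in 1 library.

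The largest losses included 2 further events besides that of troponin T whose pair of forms went from 100% to 0. For clasp2, a microtubule plus-end protein, a block of 27 and 27 bases had 4.25 FPKM ON and 0 OFF in control muscle and 0 ON and 10.3 OFF in fasted muscle. A second clasp2 block, of 108 and 45 bases, went the other way, with inclusion of 73.6% in control and 100% in fasted muscle. The OFF form of the second block and the ON form of the first had the same control value of 4.25 FPKM. For arfgap1, the GTPase-activating protein of the Golgi coat GTPase Arf1, 2.42 FPKM ON in control stood against 2.34 FPKM OFF in fasted muscle. The outer exon ends of that block are approximate, and the gene had just 225 and 221 reads.

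EH domain-binding protein 1, an endocytic adaptor that links vesicles to actin, had 7 events compared, of which 3 were lower in fasted muscle and 4 were within 20 points. Its block of 8 exons and 8814 bases had 13.9 FPKM ON and 0 OFF in control muscle and 20.5 ON and 22.6 OFF in fasted muscle, or 100% and 47.6%. The skipped form appeared while the form with the block was kept. The gene had 17793 reads in control and 27675 in fasted muscle, the deepest of the large losses after troponin T.

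The remaining large losses all began at 100% in control muscle. Inclusion in fasted muscle was 36.8% for EVI5-like protein, a regulator of Rab GTPases, 38.4% for radixin, which ties actin to the membrane, and 49.8% for nucleoporin p58/p45 of the nuclear pore. Their sums ranged from 1.15 to 5.46 FPKM.

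**Figure D5:**
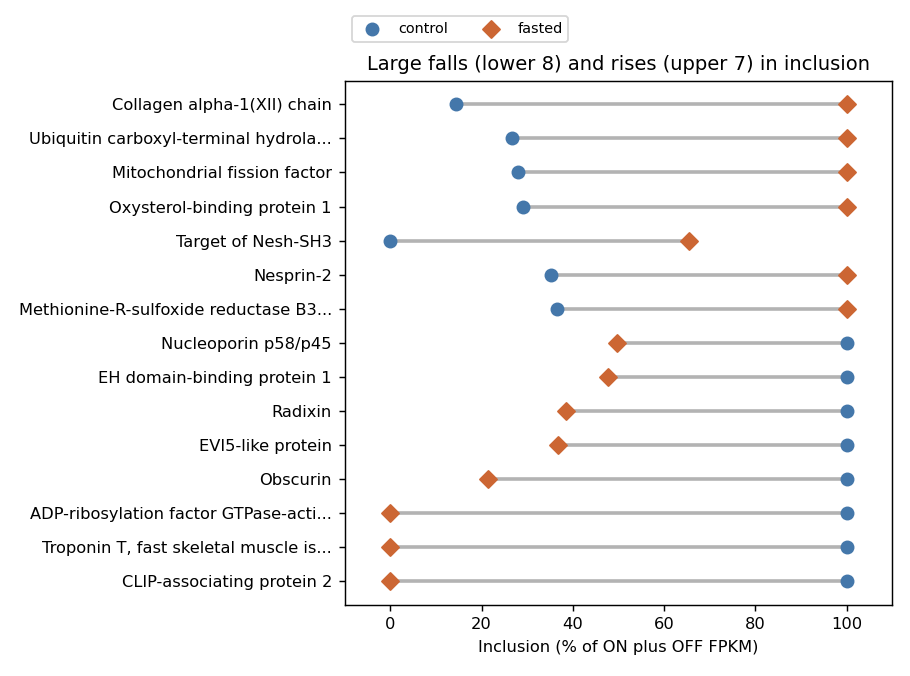
Inclusion (percent of ON plus OFF FPKM) in control (circles) and fasted (diamonds) muscle for 7 of the 8 largest gains, upper rows, and the 8 largest losses, lower rows, 1 event per gene. Of the gains shown all but that of target of Nesh-SH3 end at 100% in fasted muscle, and all 8 losses start at 100% in control muscle.

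Abundant blocks were also found outside the sarcomere. Ubiquitin-associated protein 2 had 42.2 FPKM ON and 41.1 OFF in control muscle and 149 ON and 193 OFF in fasted muscle, so that both forms were several times higher and inclusion was 50.7% and 43.7%. The 40S ribosomal protein S3a had only its ON form, at 278 FPKM in control and 891 FPKM in fasted muscle, for a block with approximate outer exon ends. The complex I subunit gene ndufv3 had only its OFF form, at 139 and 186 FPKM, for a block of 1941 bases of which one exon made up 1825. The inclusion of the S3a and ndufv3 blocks was thus at an end in both libraries, and only their level could be compared.

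Some long blocks also had similar inclusion in both libraries. The block of 12 exons in lrrfip2, whose protein binds the actin regulator flightless, was fully included in both libraries, at 16.6 and 20.1 FPKM. Its OFF form was listed at 0 in both. The block of 10 exons in nuclear receptor coactivator 5 had inclusion of 18.4% in control and 20.1% in fasted muscle with all 4 values above 0. Its outer exon ends are approximate, and its ON form had just 0.29 FPKM in control and 0.39 FPKM in fasted muscle. The sums of 1.56 and 1.92 FPKM were close to the minimum, and the gene had 272 and 420 reads.

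Calcium, channel and transporter genes held 29 events, of which 7 were compared. All 7 had only 1 form above 0, the same one in both libraries, with 2 at 0 and 5 at 100%. Ryanodine receptor 3, a calcium release channel of the sarcoplasmic reticulum, skipped a block of 4 and 11 bases in both libraries, with OFF at 34.8 FPKM in control and 20.3 in fasted muscle. The beta subunit of calcium/calmodulin-dependent kinase II had 3 blocks at 100% in both libraries. This list was matched on protein names and so also took the beta and gamma subunits of that kinase. They are neither channels nor transporters, and their events are counted again among the kinase genes below. Some other events, such as that of kmt2e, are likewise counted in more than 1 list.

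Kinase and phosphatase genes held 50 events, of which 15 were compared: 2 were higher, 1 was lower and 12 were within 20 points. Most of the 12 stood at an end, 2 at 0 and 8 at 100% in both libraries. Named after their values were seen, the highest FPKM among those that differed belonged to phka1, the regulatory alpha subunit of phosphorylase kinase, which activates glycogen breakdown. Its block of 45 and 30 bases had 0 ON and 80.7 FPKM OFF in control muscle and 39.7 ON and 38.4 OFF in fasted muscle, or inclusion of 0 and 50.8%. The gene had 13640 and 10883 reads. The block thus appeared in fasted muscle at a level like that of the form without it.

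Ubiquitin, proteasome and autophagy genes held 20 events, of which 7 were compared: 3 were higher, 1 was lower and 3 were within 20 points. Chosen after its values were seen, nedd4l, a HECT ubiquitin ligase of membrane proteins, had both directions in nested blocks that share one skipped form. The block of 195 and 138 bases had inclusion of 31.0% in control and 58.3% in fasted muscle, and the block with a further 60-base exon had 31.0% and 0. The shared OFF form was at 2.05 and 3.54 FPKM. Fully included blocks in usp25, a deubiquitinase, and ube4b, a ubiquitin chain elongation factor, had ON values of 10.4 and 7.54 FPKM in control and 43.6 and 29.6 FPKM in fasted muscle.

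Mitochondrial and metabolic genes held 24 events, of which 10 were compared: 4 were higher, 2 were lower and 4 were within 20 points, with a median difference of 8.27 points. The list was matched on protein names and also took kmt2e, a histone methyltransferase homologue, and the DNA methyltransferase 3A, which are not metabolic enzymes. Besides msrb3 and mff, the higher events were in aifm1, an oxidoreductase of the intermembrane space (0 and 40.9%), and ATP-citrate synthase, which makes cytosolic acetyl-CoA (29.98% and 56.4%). The lower events were in acyl-CoA dehydrogenase 6 (100% and 59.3%) and kmt2e (25.6% and 0). With 0.5 FPKM added to each form the differences of ATP-citrate synthase, 19.7 points, and kmt2e, -14.2 points, no longer reached 20.

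Transcription and chromatin genes held 24 events, of which 9 in 3 genes were compared: 2 were higher, 3 were lower and 4 were within 20 points. Both higher events lay in zinc finger protein 84, in blocks built from 84-base exons. The block of 3 such exons had inclusion of 54.7% in control and 100% in fasted muscle, and a block of 2 had 0 and 48.7%. Of the lower events 2 lay in tcea3, a transcription elongation factor, in blocks of 8 exons that differ in 1 exon of 69 or 66 bases.

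The smaller lists gave few values. RNA-binding genes held 9 events, of which 3 were compared: mbnl2, a muscleblind splicing regulator, was higher (0 and 46.6%, for a block of 36 and 95 bases), and both events of msi2 were at 100% in both libraries. Cytoskeleton and adhesion genes held 23 events, of which 2 were compared, collagen XII and collagen XIX (65.5% and 71.8%). This list was matched on protein names and left only these matrix collagens to compare. It missed cytoskeletal genes such as radixin, clasp2 and nesprin-2, whose compared events are counted as in none of the lists. The 103 compared events in none of the lists included 19 higher, 17 lower and 67 within 20 points, with a median difference of 0.

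Of 23 genes with several compared events, 12 had at least 1 event past 20 points, and in 2 of these, clasp2 and nedd4l, events went in both directions. Events of one gene are not independent: in control muscle 84 and in fasted muscle 58 pairs had both FPKM values in common with another pair of their locus. In the cast gene 7 events were compared, of which 2 were lower in fasted muscle. A block of 5 exons had inclusion of 66.7% and 37.9% with all 4 values above 0, and a block of 4 exons had 27.4% and 0. The gene had 3168 reads in control and 8663 in fasted muscle.

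Among the other events with all 4 values above 0, chosen after their values were seen, the largest difference was in the kinase adaptor STRAD alpha, a partner of the kinase LKB1. It had 0.332 FPKM ON and 2.45 OFF in control muscle and 3.11 ON and 1.18 OFF in fasted muscle, with inclusion of 11.9% and 72.4%. The centrosomal gene fgfr1op came next, with 0.585 ON and 1.495 OFF in control and 12.2 ON and 2.10 OFF in fasted muscle, or 28.1% and 85.3%. These genes had 107 and 179 reads in control muscle.

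Events listed in 1 library only numbered 138 in control and 118 in fasted muscle. Of the control-only events 107, and of the fasted-only events 102, had a sum of at least 1 FPKM. For 106 of the 138 and 97 of the 118 the gene had at least 100 reads in the other library, and for none was it at 0 reads in the other library. The skipped form was listed in the other library for 17 control-only and 23 fasted-only events, and was not listed there for the others.

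The control-only event with the highest FPKM was in muscle glycogen phosphorylase, the enzyme that releases glucose units from glycogen. A block of 183 bases in 2 exons had 719 FPKM ON and 783 FPKM OFF, an inclusion of 47.9%. The gene had 129321 reads in control and 12748 in fasted muscle. The event was thus listed where the gene was far more abundant. Among other control-only blocks, one in myom1, which encodes the M-band protein myomesin-1, had 113 FPKM ON and 42.2 OFF, and the titin block of 267-base exons had 0 ON and 38.2 FPKM OFF.

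The fasted-only event with the highest FPKM was in psma3, a subunit of the proteasome core, with a block of 74 and 73 bases at 514 FPKM ON and 80.3 OFF. A second proteasome core subunit, psma1, had 156 FPKM ON and 151 OFF. Their genes had 1716 and 1466 reads in control and 10576 and 8673 in fasted muscle. The host gene had more reads in the library that listed the event for 77 of the 117 fasted-only events with host reads and for 75 of the 136 control-only ones. The fasted-only nebulin blocks were not among them, as their gene had fewer reads in fasted muscle. The same share over all genes was not taken. The median log2 ratio of fasted to control RPKM over all genes with a mean RPKM of at least 1 was 0.48. Whether listing followed gene level was not tested. The 19-exon block of mia3, a cargo receptor for collagen export, had 56.7 FPKM ON and 60.0 OFF, from a gene with 1529 control and 9177 fasted reads.

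The 25-exon obscurin block was listed in control muscle with 0 ON and 16.7 FPKM OFF. Fasted muscle listed a block of 23 exons of the same gene, with 9.89 FPKM ON and 19.97 OFF. The gene had 19080 reads in control and 13906 in fasted muscle.

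Gene level was a readout that the choice of events did not use. The events lay in 373 genes, of which 322 reached a mean RPKM of 1. The log2 ratio of fasted to control RPKM (0.5 added) was centred on 0.48, the median of the 11417 genes that reached this mean. Shares of all genes are over these 11417 of 22321 listed genes, except where no RPKM filter is stated. Levels in fasted muscle were at least doubled for 37 of these host genes (11.5%) and lower by 2-fold or more for 62 (19.3%), against 16.1% and 16.6% of all genes. The hosts' median log2 ratio was -0.24. Without the centring it was 0.24, and 67 of the 322 were higher and 25 lower, against 29.7% and 8.88% of all genes. In both scalings the share of higher hosts was below that of all genes, but with no RPKM filter it was 18.0% against 16.3%. The share of lower hosts was above that of all genes with the centring and below it without. Hosts of single-exon events stood at 11.1% higher and 15.9% lower.

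Over the 163 events, the inclusion difference and the host's log2 ratio had a Spearman correlation of 0.009. The log2 ratio of ON plus OFF FPKM and the host's log2 ratio had one of 0.84. Both of these are levels of the same gene in the same libraries, so a high value was built in and is not a finding. The events share both libraries and their genes, so both correlations are descriptions. Among the 49 host genes of events past 20 points, 2 (4.1%) were at least 2-fold higher and 8 (16.3%) lower. Among the 71 other hosts 12 (16.9%) were higher and 12 (16.9%) lower. Of all genes 16.1% were higher and 16.6% lower, so all but the first of these shares lay near that background, and the first rests on 2 genes.

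Known regulators of muscle splicing, matched on protein names, gave 53 genes, of which 44 entered; 1 was at least 2-fold higher and 3 were lower, where 16.1% and 16.6% of all genes were. RBM24 (gene2438), a regulator of muscle exons in vertebrates, was the higher one, with 84.0 RPKM in control and 416 RPKM in fasted muscle and a log2 ratio of 1.82. A second RBM24 gene (gene9146), with 10.2 and 4.61 RPKM, was lower at -1.55, as were 2 of the CELF2 genes at -1.16 and -1.21. The other 40 stayed within 2-fold, among them the muscleblind genes annotated MBNL1 at -0.62 and -0.95. Without centring 9 were higher and 1 was lower, where 29.7% and 8.88% of all genes were. Both RBM24 genes kept their directions in that scaling, at 2.30 and -1.06.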

How the data were processed

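Per the labels' protocols, muscle was kept in RNAstore, its RNA isolated with Trizol and TruSeq libraries prepared. HTSeq, SAMtools 0.1.19, TopHat and TopHat2 2.0.12 are named, without roles, per the submitters' processing notes. Not given in the sources used here are the genome build, the tool behind the event lists and the strand setting of the counting, so reads of overlapping genes on opposite strands cannot be told apart. Scaffold positions are those of the deposited files, counted from 1.

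Per the file headers, the authors deposited FPKM for each form of each event, under the names of assembled loci. The labels do not say what decides whether an event is listed, and pairs with 1 or both forms at 0 are listed too. The authors deposited RPKM per gene with a position and protein name, and RPM in a comparison table. All 16725 control and 16599 fasted RPM values above 0 were whole multiples of 1 read within 0.1 read, which gave the read numbers. These show depth per gene, while FPKM and inclusion have no known depth.

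Each ON entry was paired with the OFF entry of its locus, and events were matched between libraries by scaffold, strand and all exon positions. Each event was given the gene with the largest overlap of its skipped exons on the same strand; 597 of 600 had one and 552 a named protein. Of 345 reference symbols, 156 were in the RefSeq table of another assembly, used for names only. An event was compared with ON plus OFF of at least 1 FPKM in both libraries and counted as different from 20 percentage points, a size chosen since no test is possible with 1 library per group. The text names, among compared events with a named protein, the 8 largest gains and 8 largest losses (1 event per gene), the 8 highest sums, the 4 with most exons and all sarcomere and Z-disc events; others are said to be chosen after their values were seen or belong to a list. Some results, among them 1 of the 8 gains, are not reported here. The members, lists and rules were chosen with earlier results of these data known. Scripts used Python 3.11.15, pandas 2.3.3, numpy 2.4.6 and matplotlib 3.10.9, and the arithmetic of inclusion was tested on simulated counts. Those counts had the read depth of whole genes, so the test does not measure how reliable the calls are here. Alternatives were other FPKM minimums, call sizes, boundary classes, matching, 1 event per gene and other gene scalings.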

Additional observations from a re-analysis of the deposited data

How the results depend on the processing

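The counts of 32 higher and 26 lower events became 9 and 8 of 74 with a minimum of 5 FPKM, 5 and 6 of 37 with every form above 0, 21 and 16 of 110 with at least 500 reads of the host in both libraries, and 1 and 3 of 9 with approximate boundaries only. Without a minimum, 75 further events joined the 163 and 50 of this larger set were higher. At 30 points 15 of the 163 were lower. The share past the call size was 23.0% of blocks with 5 FPKM (single exons 31.2%) and 23.3% of blocks and 24.96% of single exons at 30 points. Approximate boundaries alone left 47 control and 60 fasted pairs, with a fasted median inclusion of 28.0%. These alternatives keep fewer or more events by construction. Host genes counted 67 higher and 25 lower without centring, and 67 and 28 with no RPKM filter, where their median was 0.17; the counts over all genes moved with them. Adding 0.5 FPKM to each form, free outer exon ends, repeated values counted once, 1 event per gene, exact boundaries only and a call at 10 points left the counts of events within 1.5 times. Most alternatives select events or change the call size, so an event's own difference stays the same under them by construction. Only 0.5 FPKM added to each form and free outer exon ends could change it. Under both of these settings the 32 events named by rule kept their direction and their side of 20 points. So did the further events past 20 points or in a list, except that 8 of 67 no longer reached 20 points with 0.5 FPKM added to each form, among them ATP-citrate synthase and kmt2e. The requirement of all forms above 0, of 500 reads, of unrepeated values and of 1 event per gene for structure were chosen after seeing the data. No paired analysis was possible because each group has 1 library. Depth limits the low-FPKM events most: no interval can be set on an inclusion, and leaving out a library would leave no comparison.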
